A study of Mus musculus with 4 samples.

Results

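Of the 32285 genes in the deposited count matrices, 10 are described here: the Wnt ligands Wnt4, Wnt5a, Wnt5b, Wnt6, Wnt7b and Wnt10a, the R-spondin Rspo1, the secreted inhibitors Sfrp1 and Sfrp2, and the feedback target Axin2. They were taken as a list of named Wnt pathway genes, and the rule used none of their measured values. The list was chosen with earlier results of these data known. All 10 had UMIs in the kept cells, only 89 of them for Rspo1, and 9 genes were deep enough to be tested between lineages.

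The cells came from mammary organoids, 3D cultures grown in Matrigel from single mammary epithelial cells of virgin female mice. The 4 single-cell libraries held one condition each. WT_control and WT_HU were organoids of wild-type littermates, untreated or exposed to hydroxyurea (HU, a drug that stalls DNA replication), and Brca2mut_control and Brca2mut_HU were the same pair from Brca2mut/WT mice, which carry a truncating germline mutation in 1 Brca2 allele in every cell. Each library pooled cells behind 4 antibody tags, whose key to mice, passage or repeats is not given in the sources used here. The labels speak of 2 replicates a library while the study's text gives a different number of mice, and strain is not stated. In the study HU was given as a pulse followed by recovery, repeated over passages. Organoids were frozen, then thawed and regrown before they were dissociated for sequencing. Those sequenced were of early and late passage, and how the passages fall over the libraries and tags is not given. HU and passage therefore cannot be told apart in the library ratios. With 1 library a condition, 2 single libraries could not be tested against each other, and an effect of HU or genotype could be tested only in an additive fit over all 4 with 1 residual degree of freedom. Brca2 RNA (5.34, 5.50, 4.27 and 3.92 CPM in that order, where CPM are counts of UMIs scaled to a common total) was lower in both Brca2mut libraries, as a value without replicates.

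Wnt proteins are secreted, lipid-modified ligands that bind Frizzled receptors with the co-receptors Lrp5 and Lrp6 and, in the canonical branch, spare beta-catenin from destruction so that it can drive transcription with TCF/LEF factors. R-spondins raise the response through the Lgr receptors, Sfrp proteins bind Wnts outside the cell, and Axin2 is both a brake on the pathway inside the cell and one of its transcriptional targets. In the mammary gland Wnt4 is known as a paracrine signal of progesterone-responsive luminal cells towards basal cells, and basal stem cells are known to respond to canonical Wnt.

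The stretches before Wnt6, Axin2 and Sfrp2 are shown because the first pair had most RNA in basal cells and the last in hormone receptor-negative luminal cells in the values that follow. Each line gives the 250 bases before the RefSeq start on GRCm38.p6, 5′ to 3′, and capitals mark the GC box GGGCGGGG on either strand.
Wnt6, chr1:74771642-74771891, plus strand: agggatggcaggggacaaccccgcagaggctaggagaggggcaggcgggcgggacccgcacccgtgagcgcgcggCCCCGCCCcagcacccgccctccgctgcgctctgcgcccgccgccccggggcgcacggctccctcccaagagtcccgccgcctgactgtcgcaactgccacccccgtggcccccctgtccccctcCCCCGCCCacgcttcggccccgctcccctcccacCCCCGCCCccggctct
Axin2, chr11:108920099-108920348, plus strand: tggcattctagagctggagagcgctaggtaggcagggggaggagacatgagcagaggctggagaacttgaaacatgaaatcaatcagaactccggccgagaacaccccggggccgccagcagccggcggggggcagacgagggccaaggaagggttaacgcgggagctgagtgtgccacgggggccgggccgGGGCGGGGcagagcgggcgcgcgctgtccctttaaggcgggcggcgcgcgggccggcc
Sfrp2, chr3:83766071-83766320, plus strand: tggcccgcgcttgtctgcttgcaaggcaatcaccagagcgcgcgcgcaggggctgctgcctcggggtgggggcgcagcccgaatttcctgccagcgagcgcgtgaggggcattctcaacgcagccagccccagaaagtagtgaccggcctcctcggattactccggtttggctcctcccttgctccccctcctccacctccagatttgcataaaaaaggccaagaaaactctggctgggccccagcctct
The basal pair held GC boxes, 3 before Wnt6 and 1 before Axin2, and Sfrp2 had 0. Wnt5b, also highest in HR- luminal cells, had 1, 0 and 1 in the 250 bases before its 3 starts. Windows that run 50 bases past the start were 76.7% G or C with 31 CpG for Wnt6, 70.0% with 31 CpG for Axin2, 66.0% with 22 CpG for Sfrp2 and 84.3% with 51 CpG for Wnt4, against a median of 52.7% and 7 CpG over 32851 mouse promoter windows. RefSeq windows matched 6 of the 10 genes, 8 windows in all; Wnt5a, Wnt7b, Wnt10a and Sfrp1 were not matched. The TCF/LEF motif was searched as CTTTGAT and CTTTGAA on both strands and was present in 1 of the 8, a Wnt5b window, while 3.73% and 5.14% of all windows held each form. GGGCGGGG was in 4 of the 8 and in 17.59% of all, and neither TATAAA (13.62% of all) nor the steroid hormone response element (an inverted repeat with a 3-base gap, 0.47% of all) was in any of the 8. These are letter matches, not bound sites.

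On GRCm38 the 10 genes are protein-coding and lie on 8 chromosomes. Wnt4 (chr4:137277489-137299726) and Rspo1 (chr4:124986430-125009099) share a chromosome, and Wnt6 (chr1:74771892-74785322) and Wnt10a (chr1:74791516-74804179) are neighbours on the plus strand with 6193 bases between them. Wnt5a is at chr14:28504750-28527448, Wnt5b at chr6:119432531-119544347 on the minus strand, and Wnt7b at chr15:85535437-85582473 on the minus strand. Sfrp1 is at chr8:23411502-23449632, Sfrp2 at chr3:83766321-83774316 and Axin2 at chr11:108920349-108950783. Reads were counted at the 3′ end of transcripts, so levels were compared between cells and never between genes.

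Of 33268 cell barcodes, 17360 were kept (1000 to 6000 genes, under 5% mitochondrial UMIs), 5312, 4617, 4138 and 3293 in WT_control, WT_HU, Brca2mut_control and Brca2mut_HU, with median depths of 24180 to 26893 UMIs. Pairs of libraries shared 16 to 30 barcodes, 0.209 to 0.368% of the smaller library. Cells were put in 3 ranges of marker expression: basal (Krt14 at 500 CPM of the cell or more), HR+ luminal (Areg at 300 CPM or more) and HR- luminal (both under 300 CPM), and 781 cells lay near the Krt14 cut-off and 204 near that of Areg. The basal class held 2217 cells (12.8%), the HR+ luminal class 569 (3.28%) and the HR- luminal class 14008 (80.7%). Markers not used by the cut-offs followed the names in part. The median basal cell had 1368 CPM of Krt5 and 32.9 CPM of Trp63. The median HR+ luminal cell had 734 CPM of Prlr, 56.9 CPM of Pgr and 84.2 CPM of Foxa1. The median HR- luminal cell had 3881 CPM of Mfge8, 83.6 CPM of Elf5, 50.8 CPM of Kit and 46.1 CPM of Cd14. Acta2, a smooth muscle actin of myoepithelium, Mylk and Oxtr were 0 in the median basal cell. Of the 14008 HR- luminal cells, 349 held Acta2 at 500 CPM or more. Esr1, Cited1 and Tnfsf11 were 0 in the median HR+ luminal cell, and Lalba and Aldh1a3 in the median HR- luminal cell. The HR+ luminal class also carried Dcn, a stromal gene, at 702 to 1661 CPM, while the other 5 stromal markers summed to at most 1.18 CPM there with Col3a1 and Lum at 0. Immune markers were at 0 in it, endothelial markers summed to at most 2.13 CPM, and its Tnfsf11, the progesterone target RANKL, was 0.237 to 12.4 CPM.

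Of the 10 genes, 9 could be placed by the class in which they were highest. Wnt4, Wnt5a and Wnt7b were highest in HR+ luminal cells, Wnt6, Wnt10a and Axin2 in basal cells, and Wnt5b, Sfrp1 and Sfrp2 in HR- luminal cells, each in all 4 libraries. Rspo1 had too few UMIs to place.

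**Figure D1:**
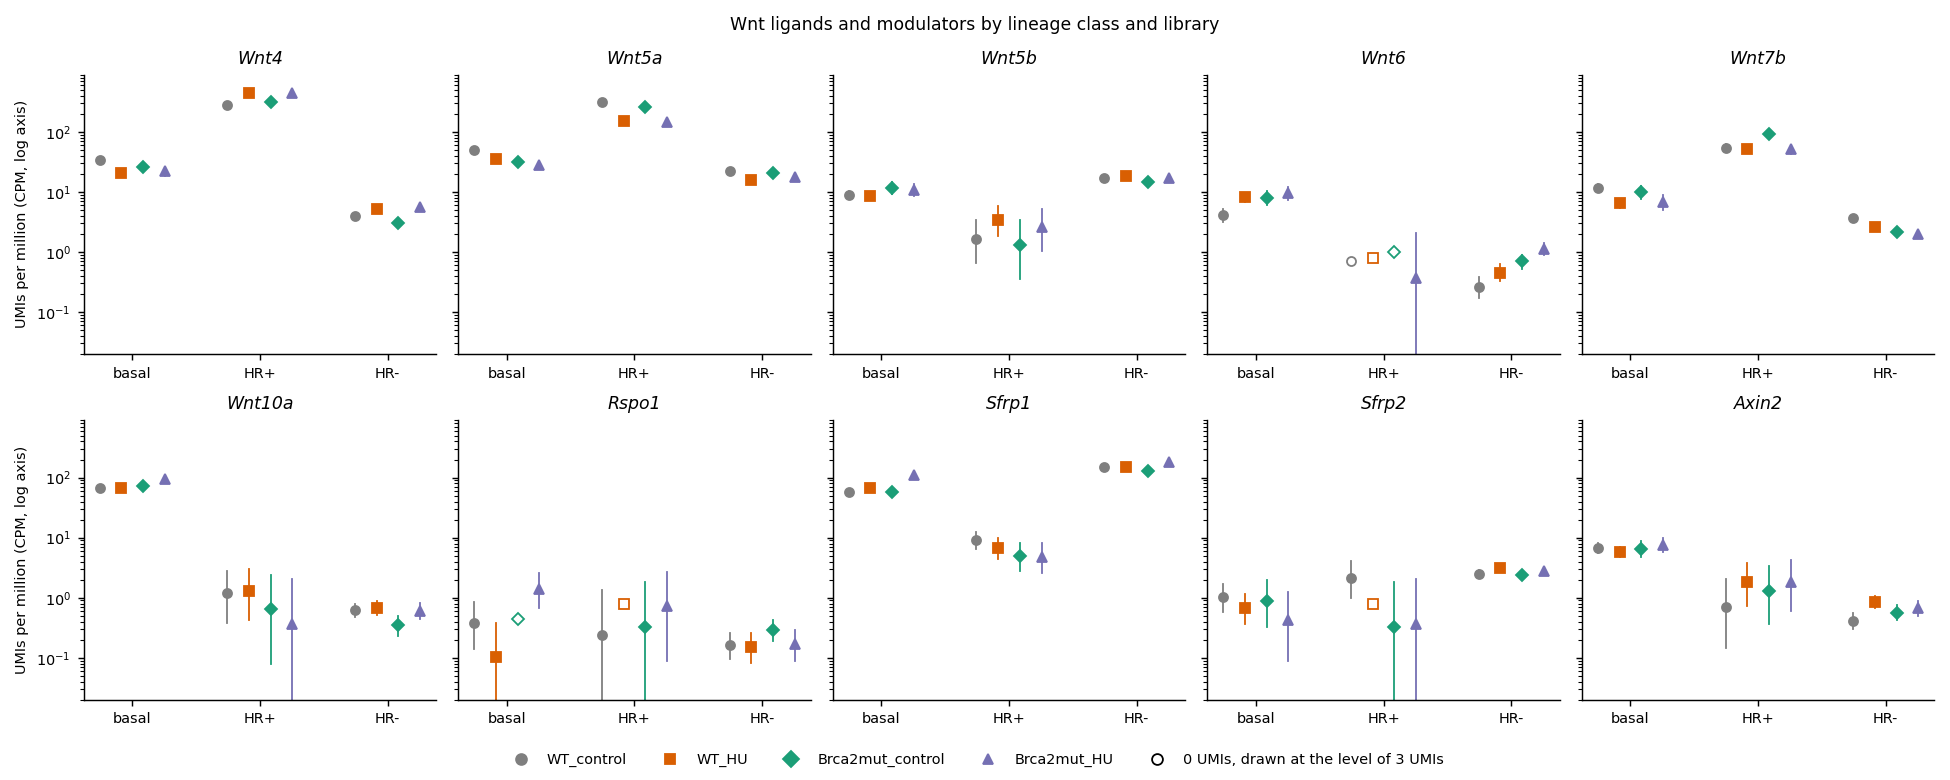
Level of each of the 10 genes in CPM (log axis) in the basal, HR+ luminal and HR- luminal classes; each point is 1 library, bars are 95% Poisson intervals (cut at the lower axis) and open points are libraries with 0 UMIs, drawn at the level of 3 UMIs. Wnt4, Wnt5a and Wnt7b peak in HR+ luminal cells, Wnt6, Wnt10a and Axin2 in basal cells, and Wnt5b and Sfrp1 in HR- luminal cells.

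Among the ligands, Wnt4 stood at 284, 445, 318 and 438 CPM in HR+ luminal cells (WT_control, WT_HU, Brca2mut_control, Brca2mut_HU). Basal cells held 34.4, 20.6, 26.4 and 22.0 CPM of it, and HR- luminal cells 4.04, 5.15, 3.07 and 5.59 CPM. The order HR+ over basal over HR- was the same in every library, and no 2 classes overlapped. Fitted over the 4 libraries (edgeR quasi-likelihood test, adjusted over 13251 genes), Wnt4 was higher in HR+ than in HR- luminal cells by 6.20 ± 0.24 on the log2 scale (SE, adjusted p = 3.51e-09) and higher in basal than in HR- luminal cells by 2.43 ± 0.22 (adjusted p = 2.24e-06). For shares of cells, cells of 5000 UMIs or more were thinned to 5000 and shallower ones were left out. A Wnt4 UMI was then seen in 53.8 to 77.7% of thinned HR+ luminal cells and in 1.36 to 2.70% of thinned HR- luminal cells. The 77.7% was that of Brca2mut_HU, where 29 of 123 HR+ luminal cells were left out. Before thinning, 70.7% of all its HR+ luminal cells held a Wnt4 UMI. The part of free RNA in the HR- luminal share was not tested. Before thinning, the HR- luminal cell with most Wnt4 held 16, 46, 23 and 27 UMIs in the same order of libraries. Median depths were 24996 to 27292 UMIs in HR+ and 24718 to 27596 UMIs in HR- luminal cells. Though the HR+ luminal class was 3.28% of cells, it held 61.2% of all Wnt4 UMIs.

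Wnt5a, a ligand best known for non-canonical signalling, was at 309, 152, 254 and 147 CPM in HR+ luminal cells. It was lower and closer together in the other 2 classes, at 49.9, 35.2, 31.1 and 28.1 CPM in basal and 22.1, 15.7, 20.4 and 17.5 CPM in HR- luminal cells. The HR+ luminal excess over HR- luminal cells was 3.28 ± 0.14 on the log2 scale (edgeR, adjusted p = 6.56e-09). Basal cells exceeded HR- luminal cells by 0.80 ± 0.14 (adjusted p = 0.000302), short of the 2-fold needed for a call. Because HR- luminal cells were so many, they held 54.9% of Wnt5a UMIs against 25.3% in the HR+ luminal class.

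Wnt7b, a ligand of luminal ductal cells, followed the same order of classes. It was 54.5, 52.2, 93.7 and 51.6 CPM in HR+ luminal, 11.7, 6.48, 9.83 and 6.74 CPM in basal and 3.70, 2.63, 2.11 and 2.00 CPM in HR- luminal cells. The fitted difference was 4.39 ± 0.23 between HR+ and HR- luminal cells (edgeR, adjusted p = 2.67e-08) and 1.57 ± 0.23 between basal and HR- luminal cells (adjusted p = 0.000115). The second of these was 0.61 (adjusted p = 0.0641) when lineages were cut on Krt5 and Prlr in place of Krt14 and Areg.

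Wnt10a, a canonical ligand, had 90.9% of its UMIs in basal cells, although these were 12.8% of the kept cells. It stood at 68.4, 67.7, 72.6 and 95.4 CPM in basal cells, at 0.366 to 1.31 CPM in HR+ luminal cells (13 UMIs in all) and at 0.347 to 0.687 CPM in HR- luminal cells. The basal level exceeded that of HR- luminal cells by 6.92 ± 0.17 on the log2 scale (edgeR, adjusted p = 4.3e-10), while the luminal classes differed by 0.55 ± 0.51 (adjusted p = 0.363). A Wnt10a UMI was found in 20.02 to 22.97% of basal cells thinned to 5000 UMIs and in 0.151 to 0.509% of HR- luminal cells, so its RNA was detected in a minority of the basal class.

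Wnt6, the genomic neighbour of Wnt10a, was also a basal ligand but at few UMIs. Basal cells held 4.10, 8.09, 8.05 and 9.54 CPM and HR- luminal cells 0.260, 0.454, 0.693 and 1.11 CPM, a difference of 3.54 ± 0.22 on the log2 scale (edgeR, adjusted p = 1.18e-07). HR+ luminal cells had 0, 0, 0 and 1 UMI, and 3 UMIs would have stood at 0.711, 0.788 and 0.990 CPM in the 3 libraries at 0. Against that floor, set per library, basal Wnt6 was at least 5.77-fold, 10.3-fold and 8.13-fold higher there. HR+ luminal Wnt6 was also called lower than HR- luminal Wnt6 (edgeR, adjusted p = 0.00954), a call that was lost without the library block (adjusted p = 0.0642). Over all libraries, HR- luminal cells held 8.14 times the level of HR+ luminal cells (95% counting interval 1.45 to 323), on 205 UMIs against 1. The part of HR- luminal cells with Acta2 in those 205 UMIs was not tested. The 205 UMIs were spread unevenly. In Brca2mut_HU 1 HR- luminal cell held 18 of them, and its tag pools had a median of 0.364 CPM and a highest value of 15.7 CPM.

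Wnt5b, a close relative of Wnt5a, ran opposite to it. HR- luminal cells had the most (16.7, 18.4, 14.4 and 16.9 CPM), basal cells less (8.91, 8.67, 11.5 and 10.8 CPM), and HR+ luminal cells the least (1.66, 3.41, 1.32 and 2.56 CPM, from 4 to 13 UMIs). The deficit in HR+ against HR- luminal cells was -3.07 ± 0.23 on the log2 scale (edgeR, adjusted p = 5.12e-07). Basal cells lay -0.90 ± 0.14 from HR- luminal cells (adjusted p = 0.000147), just short of 2-fold, and passed it without Brca2mut_control (-1.03). Over the 12 sums of class and library, log2 levels of Wnt5a and Wnt5b had r = -0.99 and those of Wnt4 and Wnt7b r = 0.98; these sums share 4 libraries and are a description only.

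Rspo1 had 89 UMIs in all kept cells and was not tested between lineages. HR- luminal cells held 17, 13, 25 and 12 UMIs (0.151 to 0.289 CPM), HR+ luminal cells 1, 0, 1 and 2, and basal cells 6, 2, 0 and 10. Of the 10 UMIs in Brca2mut_HU basal cells 7 came from 1 cell. No order between classes can be read at this depth.

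The inhibitor Sfrp1 was highest in HR- luminal cells, at 149.6, 152.2, 128.7 and 179.8 CPM. Basal cells had 57.8, 67.6, 57.1 and 110 CPM and HR+ luminal cells 9.00, 6.83, 4.95 and 4.76 CPM, so every library gave the order HR- over basal over HR+. The fitted difference of HR+ from HR- luminal cells was -4.70 ± 0.19 (edgeR, adjusted p = 4.9e-09) and that of basal from HR- luminal cells -1.24 ± 0.13 (adjusted p = 6.22e-06), the latter being -0.87 with lineages cut on Krt5 and Prlr. An Sfrp1 UMI was seen in 40.0 to 46.7% of thinned HR- luminal cells and in 1.06 to 4.43% of thinned HR+ luminal cells, and 92.5% of its UMIs lay in the HR- luminal class. Sfrp2, of the same family, was scarce: 2.53, 3.08, 2.39 and 2.83 CPM in HR- luminal cells, 1.03, 0.679, 0.894 and 0.421 CPM in basal cells, and 2.13, 0, 0.330 and 0.366 CPM in HR+ luminal cells. Both lower values were called against HR- luminal cells (edgeR, -1.99 ± 0.38, adjusted p = 0.000791, and -2.01 ± 0.54, adjusted p = 0.00642). In HR+ luminal cells the second call was lost without cells that carried 3 or more stromal UMIs, Dcn included (-1.39, adjusted p = 0.0503).

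The target Axin2 was a basal gene in every library. Its level was 6.86, 5.74, 6.56 and 7.58 CPM in basal, 0.711, 1.84, 1.32 and 1.83 CPM in HR+ luminal and 0.414, 0.862, 0.566 and 0.676 CPM in HR- luminal cells. Basal cells exceeded HR- luminal cells by 3.30 ± 0.23 (edgeR, adjusted p = 2.28e-07) and HR+ luminal cells by 2.33 on the log2 scale. HR+ luminal Axin2 rested on 3 to 7 UMIs a library and lay 0.97 ± 0.39 above HR- luminal cells (adjusted p = 0.0469), under 2-fold in the fit reported and past it in 5 alternatives, among them that without WT_control (1.07).

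**Figure D2:**
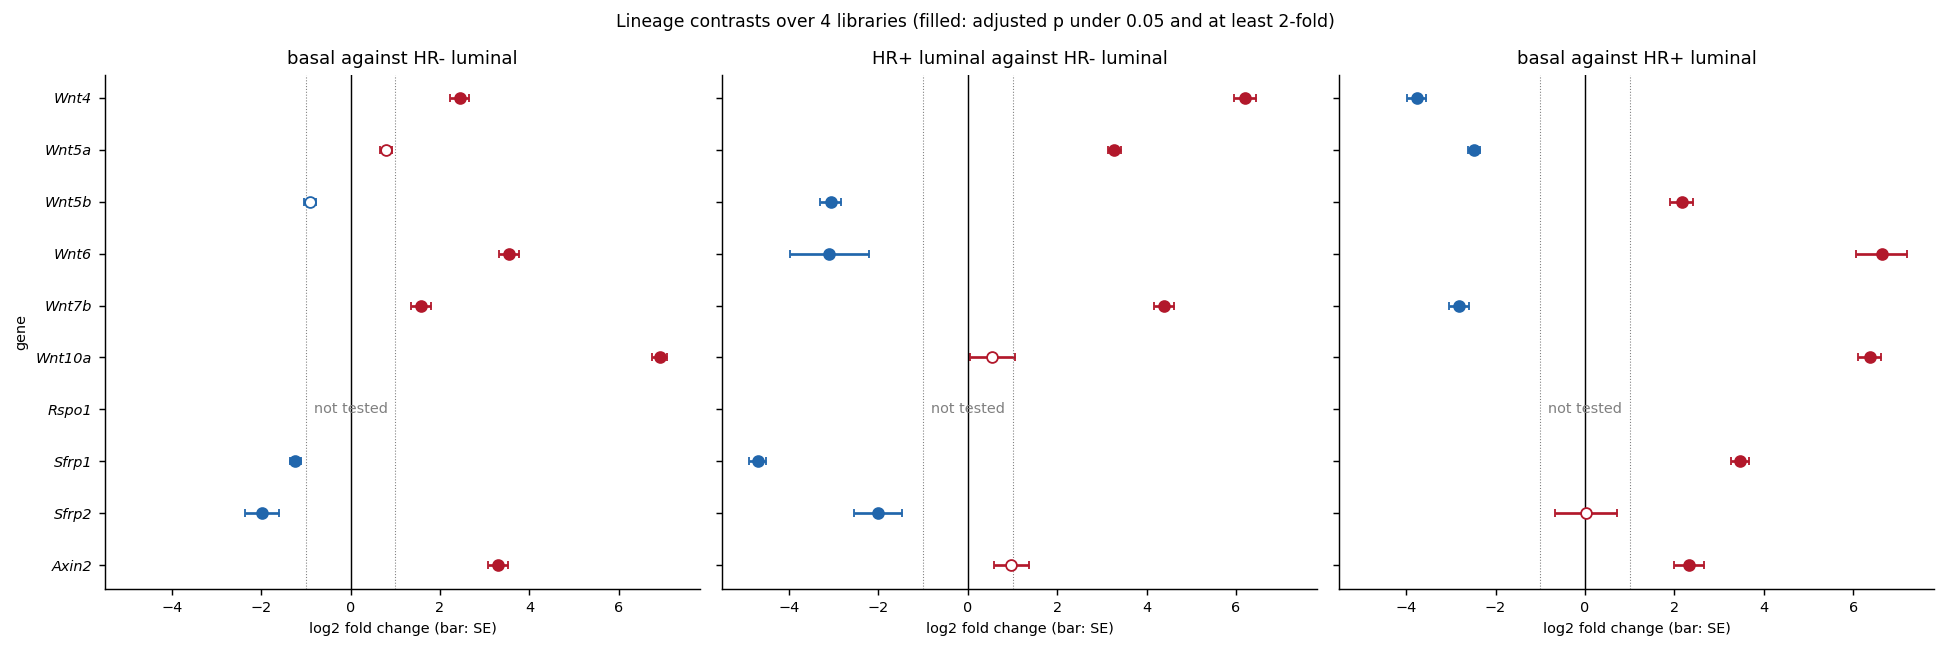
Fitted log2 fold change (x axis) of each gene in the 3 lineage contrasts, over 4 libraries, with its SE as bars; filled points passed an adjusted p of 0.05 and 2-fold, dotted lines mark 2-fold. Wnt4, Wnt5a and Wnt7b sit right in HR+ against HR- luminal cells and left in basal against HR+ luminal cells, where Wnt5b, Wnt6, Wnt10a, Sfrp1 and Axin2 sit right.

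Of the 9 genes tested, 5 were called higher and 2 lower in basal than in HR- luminal cells, against 12.3% and 12% of all genes. In HR+ against HR- luminal cells 3 were higher and 4 lower, against 12.8% and 15.9%, and in basal against HR+ luminal cells 5 were higher and 3 lower, against 12% and 9.43%. The median size of their differences was 1.99, 3.10 and 2.82 on the log2 scale in these contrasts, where the median of all genes was 0.449, 0.531 and 0.415. The 3 contrasts share their classes and libraries, and the genes were chosen with earlier results of these data known. Over the 11 of 16 tag pools that held at least 5 cells of each class, Wnt4, Wnt5a and Wnt7b were highest in HR+ luminal cells, Wnt5b in HR- luminal cells, and Wnt6, Wnt10a and Axin2 in basal cells in 11 of 11, and Sfrp1 was highest in HR- luminal cells in 10 of 11. Sfrp2 was highest in HR- luminal cells in 7 of these pools and in HR+ luminal cells in 4. Tag 2 of Brca2mut_HU, not among the 11, had the reverse order for Wnt5b. HR- luminal cells held 0.894 CPM there, and each basal pool of that library 9.60 CPM or more.

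The rest of the pathway was read from a list of 73 other Wnt genes, of which 50 were tested. This list too was chosen with earlier results of these data known. In basal against HR- luminal cells 13 were higher and 3 lower (12.3% and 12% of all genes), in HR+ against HR- luminal cells 10 and 10 (12.8% and 15.9%), and in basal against HR+ luminal cells 16 and 5 (12% and 9.43%). Of the 13 other ligands only Wnt9a and Wnt11 were deep enough to test, and Wnt1 and Wnt2 had 0 UMIs in all 3 classes. Wnt9a and Wnt11 were higher than in HR- luminal cells both in basal cells (2.62 and 3.67 on the log2 scale) and in HR+ luminal cells (1.63 and 4.68). Porcn, the enzyme that acylates Wnts, was highest where Wnt4 was, at 44.8 to 103 CPM in HR+ luminal cells, a log2 difference of 3.73 from HR- luminal cells, while Wls, the carrier that takes Wnts to the cell surface, was lower there (-1.53). The R-spondin receptors Lgr5 and Lgr6 were higher in basal than in HR- luminal cells (5.09 and 3.30), as were the inhibitors Wif1 (5.30), Apcdd1 (4.93) and Notum (4.31), and the targets Procr (2.87), Nkd1 (2.51) and Nkd2 (2.39). Among inhibitors, HR+ luminal cells stood out from HR- luminal cells in Sfrp4 (6.89), Dkk2 (5.81) and Notum (4.37), and among receptors in Fzd4 (3.71). The Frizzled receptors Fzd9 (-3.63) and Fzd5 (-1.17) were lower in HR+ than in HR- luminal cells. Basal cells exceeded HR+ luminal cells in the inhibitors Dkk3 (6.45) and Wif1 (5.76) and the receptors Lgr5 (4.07) and Lgr6 (3.88). Tcf7, a TCF factor, was higher in basal than in HR- luminal cells (3.20), and the beta-catenin gene Ctnnb1 was within 2-fold in the 3 contrasts.

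The genes whose levels over the 12 sums were most like those of each member were sought among 7265 genes of 20 CPM or more in some sum. They were picked by r over these sums, so a like pattern over the classes is no separate result. Wnt4 was closest to Ehd1 (Pearson r = 0.997 of log2 levels), Itpripl2 and Dipk1a, Wnt7b to Prrx2 (0.995), Wfdc2 and Cldn4, and Wnt5a to Las1l (0.991), Plcb3 and 4930523C07Rik. Wnt10a was closest to Bcl11b (0.995), Rps23 and Tpm2, Wnt6 to Eif3m (0.989), Cnn1 and Postn, and Axin2 to Glo1 (0.991), Cdh2 and Krt17. Sfrp1 was closest to Dock9 (0.992), Itga8 and Gstm5, Wnt5b to Vkorc1 (0.985) and Ldhb, and Sfrp2 to Mthfsd (0.976), 3830406C13Rik and Clca3a2. Rspo1, under 100 UMIs in these sums, was not compared.

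Within the basal class, Wnt genes differed between cells with and without contractile RNA. After thinning to 5000 UMIs, 58.7 to 77.9% of basal cells in a library had no UMI of Acta2, Myl9, Tagln, Cnn1 or Mylk, so the split by tertile, as planned, came to cells with 1 or more such UMIs (2 or more in Brca2mut_HU) against cells with none. Sfrp1 stood at 113, 111, 92.6 and 197 CPM in cells with contractile UMIs and at 43.7, 51.9, 45.0 and 63.9 CPM in cells without, higher in all 4 libraries (1.31 ± 0.10 on the log2 scale, edgeR adjusted p = 3.13e-06). Wnt4 went the other way, at 16.4, 12.3, 6.99 and 5.46 CPM with and 39.4, 23.5, 33.3 and 31.3 CPM without (-1.45 ± 0.20, adjusted p = 0.000361). Both kept their direction in all 14 alternatives, though Sfrp1 fell short of 2-fold (0.96) with cells of up to 10% mitochondrial UMIs and no upper gene limit.

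In the same contrast Wnt5b was higher with contractile UMIs (12.6, 13.3, 19.2 and 17.4 CPM against 7.77, 7.03, 8.93 and 5.83 CPM; 1.03 ± 0.17, edgeR adjusted p = 0.00093). Wnt7b was lower (7.56, 2.89, 4.66 and 4.47 CPM against 12.6, 7.82, 11.8 and 8.87 CPM; -1.06 ± 0.20, adjusted p = 0.00223). These last calls were at the 2-fold line: Wnt5b gave 0.92 without Brca2mut_HU, and Wnt7b -0.92 without WT_HU. Wnt10a was at 56.7, 63.2, 57.7 and 30.8 CPM with and 72.3, 69.6, 78.7 and 130 CPM without, widest apart in Brca2mut_HU, and was not called (-0.62 ± 0.23, adjusted p = 0.0653). Of the 8 genes tested, 2 were called higher and 2 lower, against 4.55% and 2.32% of all genes.

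The basal cells that were cycling carried more Wnt10a. In basal cells with 2 or more UMIs over Mki67, Top2a, Birc5 and Cdk1 (70, 141, 24 and 20 cells) it was at 124, 122, 146 and 177 CPM, and in those with none at 61.9, 53.5, 63.7 and 86.8 CPM. The lowest cycling value lay above the highest non-cycling value, and the difference was 1.10 ± 0.09 on the log2 scale (edgeR adjusted p = 1.28e-07). Wnt6 moved with it, at 10.6, 13.4, 12.5 and 22.6 CPM against 3.41, 6.68, 8.22 and 8.05 CPM (1.17 ± 0.22, adjusted p = 0.000768). Wnt5b (-1.09 ± 0.26, adjusted p = 0.00476) and Wnt7b (-1.13 ± 0.29, adjusted p = 0.0067) were called lower in cycling basal cells on 2 to 19 UMIs a library. Wnt5b lost its call without WT_control (-0.93), WT_HU (adjusted p = 0.0558) or Brca2mut_control (-0.97), and Wnt7b without WT_control (-0.73, adjusted p = 0.122). Median depths were 27884 to 30863 UMIs in cycling and 19935 to 23443 in non-cycling basal cells, and their part in these differences was not tested. Axin2 was at 11.1, 8.12, 12.5 and 12.2 CPM in cycling and 6.13, 4.76, 5.55 and 8.24 CPM in non-cycling cells (0.82 ± 0.23, adjusted p = 0.0102), under 2-fold. Of 8 tested, 2 were higher and 2 lower, against 4.72% and 4.65% of all genes; with cells of up to 10% mitochondrial UMIs and no upper gene limit, 0 of the 4 calls reached 2-fold, Wnt10a giving 0.92, Wnt6 0.92, Wnt5b -0.34 (adjusted p = 0.08) and Wnt7b -0.15 (adjusted p = 0.318).

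**Figure D3:**
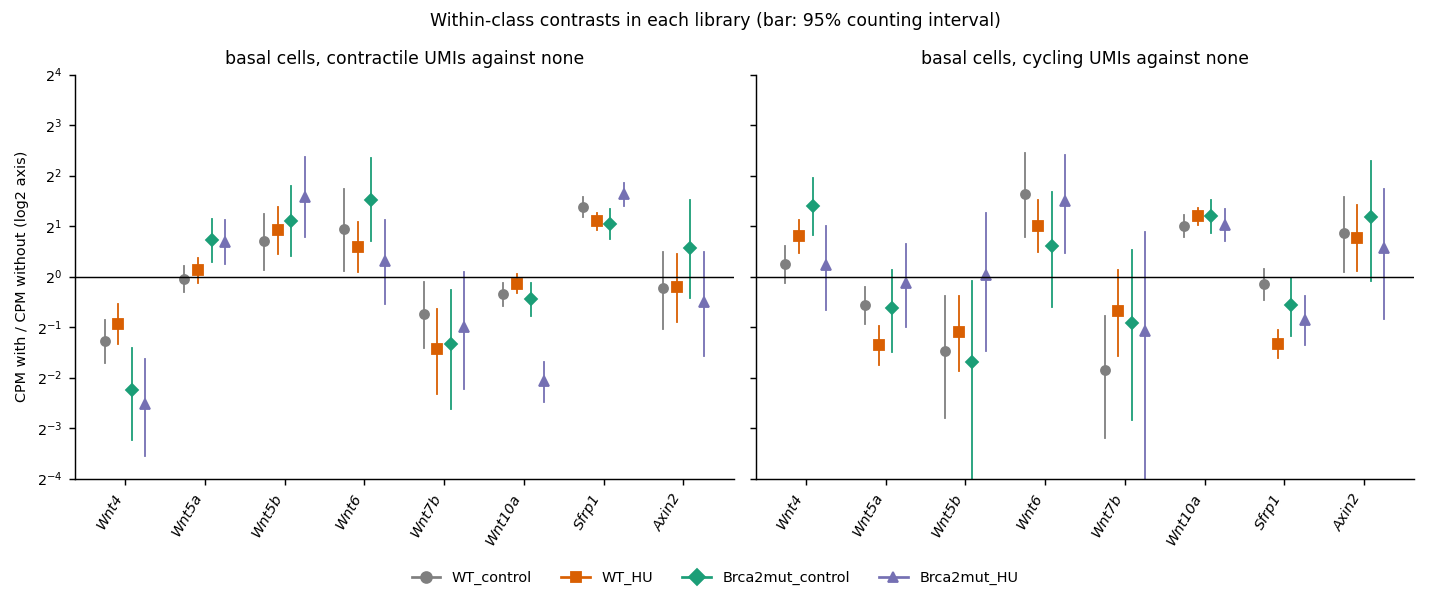
Ratio of the level in basal cells with contractile UMIs to that in cells with none (left), and the same for cycling UMIs (right), on a log2 axis; each point is 1 library and bars are 95% counting intervals. Sfrp1 is above 1 and Wnt4 below 1 in all 4 libraries on the left, and Wnt10a is above 1 in all 4 on the right.

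Cycling HR- luminal cells gave 1 call among 9 genes, Wnt6 (1.29 ± 0.40, edgeR adjusted p = 0.0120), against 5.47% higher and 3.22% lower of all genes. It rested on 2, 9, 4 and 16 UMIs in the cycling cells and was lost without WT_HU (adjusted p = 0.0749) or without Brca2mut_HU (adjusted p = 0.168). It was 0.10 (adjusted p = 0.766) with the looser cell filter and 0.63 (adjusted p = 0.258) without cells with stromal UMIs. Sfrp1 was at 120, 111, 98.7 and 129 CPM in cycling and 152, 156, 132 and 183 CPM in non-cycling HR- luminal cells (-0.53 ± 0.04, adjusted p = 3.43e-08), lower in all 4 libraries but by less than 2-fold. Keratinizing basal cells (3 or more UMIs over Krt10, Krt1, Krtdap, Sbsn, Lor and Ivl) could be compared in 3 libraries, since Brca2mut_HU had 17 such cells. Of 8 genes, Wnt5b was called lower (6, 9 and 0 UMIs; -1.63 ± 0.46, adjusted p = 0.0423), against 4.12% higher and 5.41% lower of all genes, and it was lost without WT_control (adjusted p = 0.203) or without Brca2mut_control (adjusted p = 0.0710). Without WT_HU, Wnt4 (1.08) and Wnt10a (-1.05) passed 2-fold, as did Sfrp1 without Brca2mut_control (-1.02).

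HR+ luminal cells with a UMI of Pgr, the progesterone receptor gene, were compared with those without. Wnt4 was at 319, 561, 366 and 531 CPM with and 268, 409, 289 and 394 CPM without, higher in all 4 libraries (0.37 ± 0.08 on the log2 scale, edgeR adjusted p = 0.0162) but under 2-fold. Wnt5a was at 392, 147, 302 and 177 CPM with and 267, 155, 226 and 134 CPM without (0.34 ± 0.10, adjusted p = 0.0895), and Wnt7b had a small fitted difference (-0.07 ± 0.11, adjusted p = 0.815). Of 3 genes tested 0 were called, against 0.200% higher and 0.455% lower of all genes, with 1 of the 3, Wnt4, under an adjusted p of 0.05. In cells thinned to 5000 UMIs, a Wnt4 UMI was present in 62.1, 88.1, 71.4 and 82.9% of HR+ luminal cells with a Wnt5a UMI and in 41.3, 52.6, 56.0 and 74.6% of those without. The share was higher beside a Wnt5a UMI in each of the 4 libraries, and likewise beside a UMI of Dcn, Pgr or Wnt7b. Beside a Dcn UMI it was 67.3, 85.4, 79.6 and 82.8%, against 47.2, 60.4, 50.8 and 75.4% without.

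The condition effects are given as ratios of 1 library to another among genes of 5 CPM or more in either, with counting intervals that do not cover the spread between mice or cultures. In the HR+ luminal class Wnt5a was lower after HU in both genotypes. The HU library stood at 0.492 of the control in wild type (95% interval 0.445 to 0.543) and at 0.577 in Brca2mut (0.510 to 0.652), and over 17 alternatives the ratios ranged from 0.352 to 0.545 and from 0.428 to 0.644. Tag pools overlapped between libraries, at 46.3 to 401 CPM in WT_control, 51.2 to 244 in WT_HU, 35.2 to 264 in Brca2mut_control and 0 to 420 in Brca2mut_HU. The smallest pools held 8, 6, 0 and 3 cells in that order. The share of thinned cells with a Wnt5a UMI was 60.1% and 55.8% in the control libraries and 43.1% and 37.2% in the HU libraries. In sums over a class, fewer cells with the RNA and less of it per cell cannot be told apart, and both would lower this share.

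Wnt4 moved the other way in the same cells, to 1.57 of the control in wild type (1.45 to 1.69) and 1.38 in Brca2mut (1.264 to 1.5003). The wild-type ratio rested on 1 tag pool. In WT_HU 86 of the tagged HR+ luminal cells belonged to pool 2, at 522 CPM, while its other pools stood at 130, 43.8 and 313 CPM on 9, 6 and 18 cells, and without pool 2 the ratio was 0.994. In WT_control the 4 pools stood at 151, 369, 55.6 and 300.3 CPM, and without its pool 1 the ratio was 1.48. Wnt7b stood at 0.551 of the control in Brca2mut (0.447 to 0.677) and at 0.959 in wild type (0.789 to 1.16). Its Brca2mut_control level was 1.72 times that of WT_control (1.44 to 2.05). Without pool 4 of Brca2mut_control these Brca2mut ratios were 0.953 and 0.994. Pgr was 65.4 CPM in WT_HU and 117 to 138 CPM in the other 3 libraries, Dcn was 702, 1213, 1661 and 1005 CPM, and the part of either in these ratios was not tested.

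**Figure D4:**
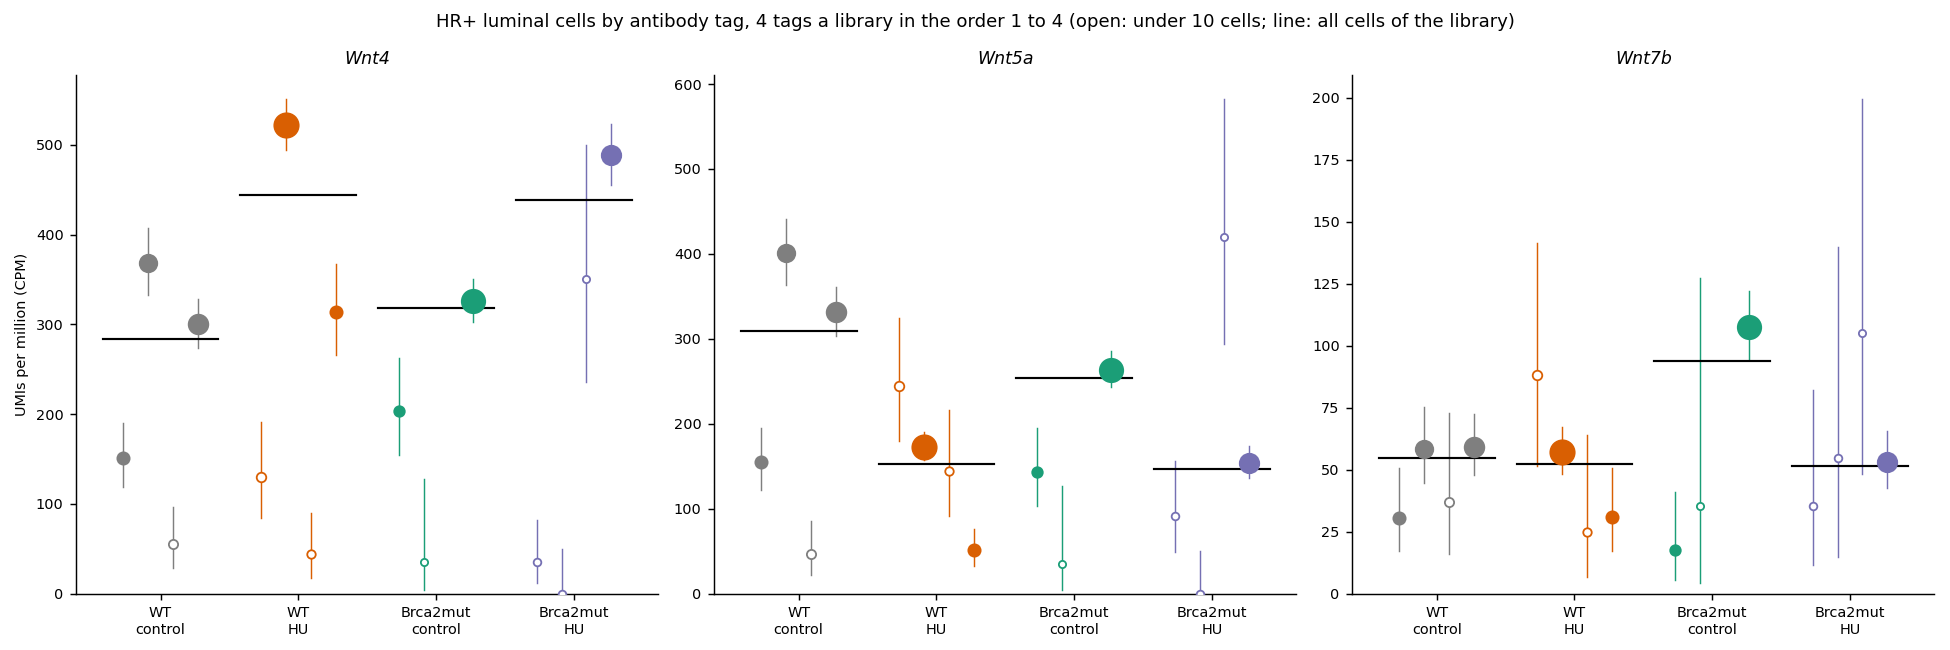
Level of Wnt4, Wnt5a and Wnt7b (CPM) in HR+ luminal cells of each antibody tag, in the order 1 to 4 within a library; point area grows with the number of cells, open points hold under 10 cells, bars are 95% Poisson intervals and the line is the whole class of that library. The large WT_HU pool 2 lies at 522 CPM of Wnt4, above its other 3 pools.

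In the HR+ luminal class, 2 of 4 genes were past 1.5-fold between WT_HU and WT_control, against 15.3% of all genes, and 2 of 3 between Brca2mut_HU and Brca2mut_control, against 16.1%. Between the untreated genotypes 2 of 4 were past it, against 13.8%, namely Wnt7b and Sfrp1 (0.549, interval 0.281 to 1.02, on 38 and 15 UMIs), and between the HU libraries 0 of 4, against 13.7%. The Wnt4 and Wnt5a ratios between the HU libraries were 0.986 (0.914 to 1.06) and 0.964 (0.847 to 1.10), and 1.55 for Wnt4 without pool 2 of WT_HU. The 2 Sfrp1 values rest on few UMIs, and its ratio in wild type went from 0.758 to 1.62 without that pool. The comparisons share their libraries.

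In basal cells the wild-type libraries differed at 3 of 8 genes, against 9.07% of all: Wnt4 (0.600, 0.526 to 0.685) and Wnt7b (0.555, 0.438 to 0.701) were lower after HU and Wnt6 higher (1.97, 1.46 to 2.68). In Brca2mut the same ratios were 0.835 (0.670 to 1.04), 0.685 (0.462 to 1.01) and 1.19 (0.818 to 1.73), and the 1 of 8 past 1.5-fold was Sfrp1, at 1.93 (1.70 to 2.18), against 7.27%. Sfrp1 was also the 1 of 8 past it between the HU libraries (1.63, 1.49 to 1.78), against 9.97%, and its 110 CPM in Brca2mut_HU was above the other 3 libraries, at 57.1 to 67.6 CPM. The share of thinned basal cells without a contractile UMI was 58.7% in Brca2mut_HU, 73.6% in Brca2mut_control, 71.7% in WT_HU and 77.9% in WT_control. The part of this share in the Sfrp1 ratios was not tested. Between untreated genotypes Wnt5a (0.624, 0.533 to 0.728) and Wnt6 (1.96, 1.34 to 2.86) were past 1.5-fold, 2 of 8 against 5.62%. The Wnt6 value of 4.10 CPM in WT_control was the low one of the 4. Several of these changed when 1 tag pool was left out, some towards 1 and some further from it. Without pool 4 of Brca2mut_control the Wnt6 ratio between untreated genotypes was 1.12, nearer to 1. That of Wnt6 after HU in Brca2mut was then 2.07 and that of Wnt5a between untreated genotypes 0.415, both further from 1. The Wnt7b ratio in Brca2mut was 0.436 without pool 4 of Brca2mut_HU and 1.32 with the looser cell filter. Without pool 4 of WT_control the Wnt4 ratio in wild type was 0.716, and without pool 2 of WT_HU that of Wnt7b was 0.763. Sfrp1 after HU in Brca2mut stayed between 1.21 and 2.04 over 17 alternatives. Wnt10a was 0.990 after HU in wild type (0.912 to 1.07) and 1.32 in Brca2mut (1.17 to 1.48).

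**Figure D5:**
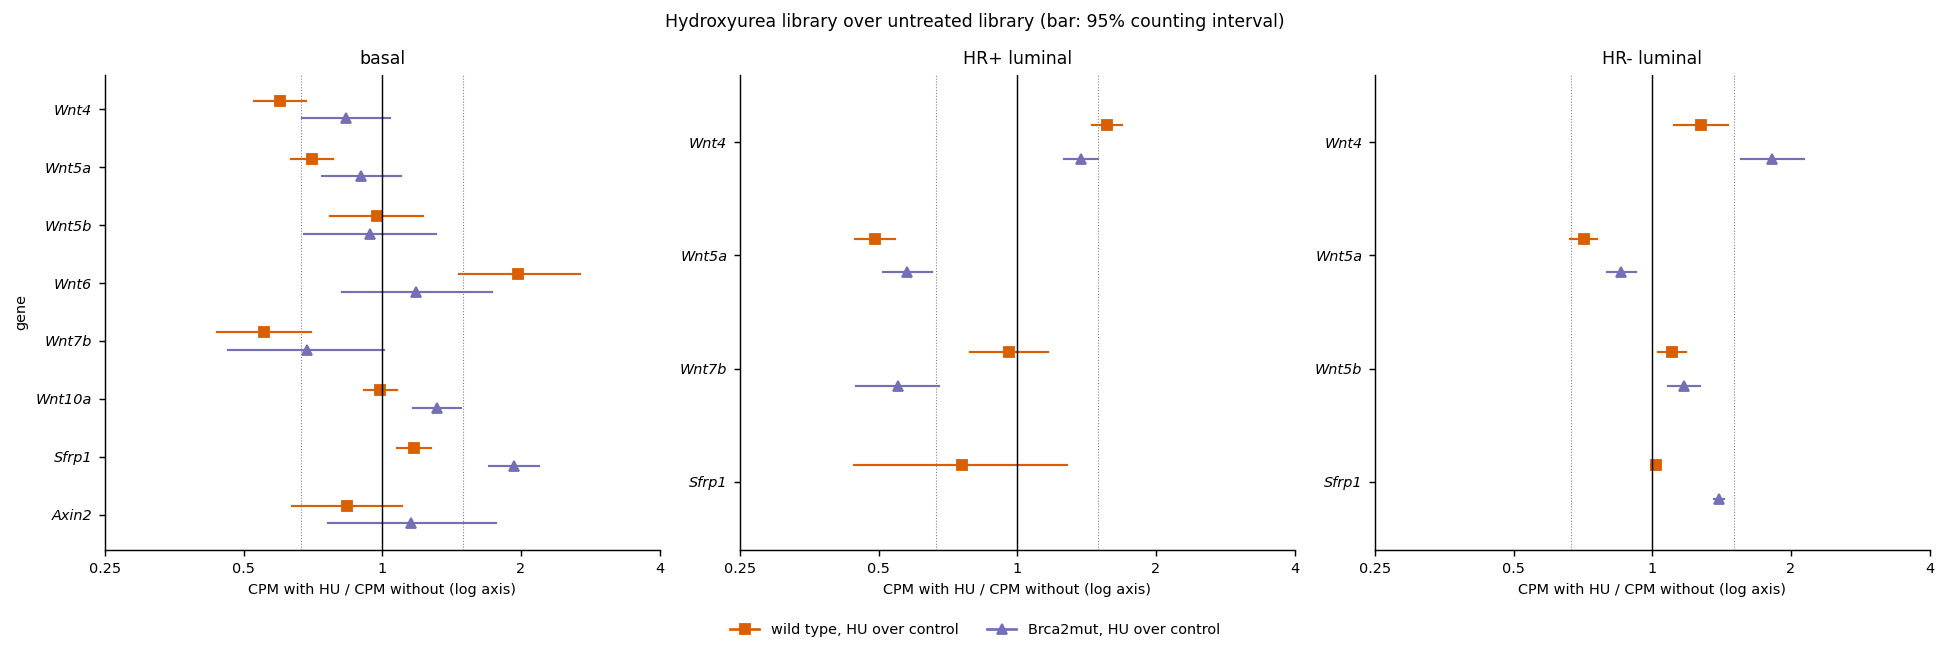
Ratio of the HU library to the untreated library (x axis, log) in wild type and Brca2mut for each gene of 5 CPM or more, by class; bars are 95% counting intervals and dotted lines mark 1.5-fold either way. Wnt5a lies at 0.492 and 0.577 in HR+ luminal cells, and Wnt4 lies left of 1 in basal and right of 1 in luminal cells.

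HR- luminal cells had the fewest genes past 1.5-fold. Of 4 genes 0 were past 1.5-fold between WT_HU and WT_control, against 1.77% of all, 0 of 3 between untreated genotypes, against 1.27%, and 0 of 4 between the HU libraries, against 1.19%. Between the Brca2mut libraries 1 of 4 was, against 1.71%: Wnt4, at 1.82 (1.55 to 2.13), a level of 3.07 against 5.59 CPM. Of the 397 UMIs behind the latter, 133 came from the 117 cells of tag pool 4, at 37.9 CPM, while the other 3 pools stood at 2.98 to 3.93 CPM, and without pool 4 the ratio was 1.27. Wnt5a was lower after HU here too, at 0.710 (0.663 to 0.760) in wild type and 0.856 (0.795 to 0.921) in Brca2mut, without reaching 1.5-fold. Sfrp1 was at 1.02 (0.994 to 1.04) in wild type and 1.40 (1.36 to 1.43) in Brca2mut. Over 17 alternatives these ratios ranged from 0.927 to 1.18 and from 1.23 to 1.64. The median of Sfrp1 over tag pools was 123 CPM in WT_control, 140 CPM in WT_HU, 126 CPM in Brca2mut_control and 145 CPM in Brca2mut_HU. Its level differed between tags in each library, and the part of the tag mix in the ratios was not tested.

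Fitted over the 4 libraries with genotype as a term, an alternative chosen after seeing the data, the HU effect on Wnt5a in HR+ luminal cells was -0.94 ± 0.12 on the log2 scale and missed the threshold (edgeR, adjusted p = 0.0810, lower in 2 of 2 genotypes). Wnt4 there was at 0.53 ± 0.13 (adjusted p = 0.307). Of the 4 genes tested in HR+ luminal cells 0 were called for HU, against 0.102% of all genes, with 2 at an unadjusted p under 0.05. For genotype 0 were called, against 0% of all genes, with 0 at an unadjusted p under 0.05. Over all 10772 genes tested there, 992 had an unadjusted p under 0.05 for HU and 701 for genotype. In basal cells 0 of 9 were called for HU, against 0.668%, with 5 at an unadjusted p under 0.05. For genotype 0 of 9 were called, against 0.489%, with 3 at an unadjusted p under 0.05. Over all 12878 genes tested in basal cells, 1882 had an unadjusted p under 0.05 for HU and 1887 for genotype.

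In HR- luminal cells the same fit gave Wnt4 a HU effect of 0.59 ± 0.13 (edgeR, adjusted p = 0.0233). Wnt5a had one of -0.36 ± 0.08 (adjusted p = 0.0192). Both were under 2-fold, so that 0 of 10 genes were called, against 0.615%, with 6 at an unadjusted p under 0.05. Over all 15613 genes tested in HR- luminal cells, 3283 had an unadjusted p under 0.05 for HU. The Wnt4 library ratios there depended on single tag pools. They were 0.854 in wild type without pool 2 of WT_HU and 1.27 in Brca2mut without pool 4 of Brca2mut_HU. For genotype 1 of 10 was called, against 0.647%: Wnt6, higher in Brca2mut by 1.30 ± 0.25 (adjusted p = 0.0188). Its levels were 0.260 and 0.454 CPM in the wild-type and 0.693 and 1.11 CPM in the Brca2mut libraries, and 55 of the 79 UMIs in Brca2mut_HU came from tag pool 4. Its 117 cells stood at 15.7 CPM. The median over tag pools was 0.364 CPM in Brca2mut_HU and 0.399 CPM in Brca2mut_control, against 0.515 CPM in WT_HU and 0.414 CPM in WT_control. The part of tag pool 4 in the difference was not tested. HR- luminal cells with Acta2 at 500 CPM or more numbered 98 in WT_control, 91 in WT_HU, 75 in Brca2mut_control and 85 in Brca2mut_HU. Their part in the Wnt6 difference was not tested either. Wnt7b had a genotype effect of -0.66 ± 0.15 (edgeR, adjusted p = 0.0474), under 2-fold. For genotype 3 of the 10 genes were at an unadjusted p under 0.05, as were 1663 of all 15613 genes. Leaving out a library left this fit with no residual degree of freedom.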

How the data were processed

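Single-cell RNA of mammary organoids was measured in 4 libraries (10x Chromium, 3′ UMI counts with antibody tags). The matrices deposited by the authors hold raw counts of UMIs per gene and cell on the mm10 (GRCm38) genome. The submitters' processing notes name Cell Ranger 6.0.2, R 4.1.3 and Seurat 4.0, and the file header names Cell Ranger 6.1.1; which gene reference was used is not settled by these sources. The 4 libraries held 302135155, 258821284, 243430259 and 258118001 gene UMIs (WT_control, WT_HU, Brca2mut_control, Brca2mut_HU).

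Cells of 1000 to 6000 genes and under 5% mitochondrial UMIs were kept. No doublet caller was run; single-tag cells (15136 of 17360 kept cells) were an alternative, and 210 kept cells carried 2 or more tags. UMIs were summed by class and library. Lineages and splits were compared with edgeR 4.0.16 (R 4.3.3; TMM, filterByExpr, quasi-likelihood test, library as a block), with Benjamini-Hochberg adjustment over all genes, and a call needed an adjusted p under 0.05 and 2-fold. The 4 libraries served as replicates there although they differ in condition, and p-values measure the spread between them. Single libraries were compared without a test, by exact Poisson (levels) and conditional binomial (ratios) intervals at 95%, which cover counting error only. Classes are ranges cut on Krt14 and Areg, not cell types by annotation. For shares of cells with a UMI, cells were thinned to 5000 UMIs and shallower ones left out.

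The members, the 73 pathway genes and the marker lists (basal, HR+ luminal, HR- luminal, stromal, endothelial, immune and squamous) were chosen with earlier results of these data known. All members are named; of the pathway, the called genes of largest fold in each role, at most 3 a contrast; of similar genes, the 3 of highest Pearson r of log2(CPM + 1) among genes of 20 CPM or more in 1 sum, of which 1 is not reported here. On simulated counts for 13251 genes, 100, 94 and 91 of 100 genes changed 4-fold were called in basal against HR-, HR+ against HR- and basal against HR+ luminal cells. Alternatives were other scalings, DESeq2 1.42.0, no count filter, no block, left-out libraries or tag pools, other cell filters and other lineage cut-offs. The results given without cells with stromal UMIs left out cells with 3 or more UMIs over the 6 stromal markers, Dcn included. Alternatives chosen after seeing the data were leaving out cells with stromal UMIs other than Dcn, and an additive edgeR fit of genotype and HU over the 4 libraries of a class. Python 3.11.15, scipy 1.17.1 and matplotlib 3.10.9 were used. Gene positions are from GENCODE on GRCm38, and promoter sequences from RefSeq on GRCm38.p6.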

Additional observations from a re-analysis of the deposited data

Results flagged for a closer look

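The HU library differed from the control library in opposite directions in different classes of the same wild-type organoids for Wnt4. The ratio of WT_HU to WT_control was 0.600 in basal cells, 1.57 in HR+ luminal cells and 1.28 in HR- luminal cells, and each counting interval was clear of 1. Without tag pool 2 of WT_HU the HR+ luminal ratio was 0.994 and the HR- luminal ratio 0.854, both turned in direction, while over 17 alternatives the basal ratio lay between 0.506 and 0.744. Each ratio compares 1 library with 1 other, and the difference between classes was not tested.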

How the results depend on the processing

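The lineage calls were the steadiest: 7, 7 and 8 members were called in basal against HR-, HR+ against HR- and basal against HR+ luminal cells, and no alternative moved a count by over 1.5 times (7 to 8, 7 to 8 and 8 without 1 library). The splits depended more on the processing. With cells of up to 10% mitochondrial UMIs and no upper gene limit, calls went from 4 to 2 in the contractile split, from 4 to 0 in the basal cycling split and from 1 to 0 in the HR- luminal cycling split. Without cells with stromal UMIs they were 2 in the contractile and 0 in the HR- luminal cycling split, which also lost its call without the library block (0). The squamous split had 1 call, 2 with library totals only, 0 with DESeq2 and 0 with stricter lineage cut-offs. Without 1 library the contractile split gave 3 to 4 calls, the basal cycling split 2 to 4, the HR- luminal cycling split 0 to 1 and the squamous split 0 to 3, and the Pgr split 0. Counts past 1.5-fold are given in the order WT_HU to WT_control, Brca2mut_HU to Brca2mut_control, Brca2mut_control to WT_control and Brca2mut_HU to WT_HU. They were 3, 1, 2 and 1 in basal, 2, 2, 2 and 0 in HR+ luminal and 0, 1, 0 and 0 in HR- luminal cells. With the looser cell filter the basal counts were 0, 0, 2 and 2, the HR+ luminal counts 1, 1, 1 and 0 and the HR- luminal counts 1, 1, 1 and 0. With lineages cut on Krt5 and Prlr the basal counts were 2, 3, 1 and 3, the HR+ luminal counts 2, 1, 1 and 0 and the HR- luminal counts 1, 0, 1 and 0. With no minimum level they were 5, 3, 3 and 3 in basal, 6, 6, 5 and 4 in HR+ luminal and 2, 4, 4 and 1 in HR- luminal cells. Stricter lineage cut-offs gave 2 in basal and 0 in HR- luminal cells for Brca2mut_HU to Brca2mut_control. In HR+ luminal cells, single-tag cells gave 1 for Brca2mut_control to WT_control and 1 for Brca2mut_HU to WT_HU, and cells of 10000 or more UMIs gave 1 for the latter. Without 1 tag pool the counts ranged over 2 to 4, 1 to 3, 1 to 2 and 1 to 3 in basal, 1 to 3, 1 to 3, 1 to 2 and 0 to 2 in HR+ luminal and 0 to 1, 0 to 2, 0 and 0 to 1 in HR- luminal cells. Without 1 tag pool, the ratio of Wnt4 (WT_HU to WT_control, HR+ luminal) ranged from 0.994, without tag pool 2 of WT_HU, to 1.74, and that of Wnt7b (Brca2mut_control to WT_control, HR+ luminal) from 0.994, without tag pool 4 of Brca2mut_control, to 1.86; over all 17 alternatives their upper ends were 1.78 and 2.12. The cause of these changes was not tested. No paired analysis of the conditions was possible, because each was 1 library and no label assigns its tags to mice. HU was fitted with genotype as a term instead. Low UMI counts limit Rspo1, Sfrp2, Wnt6 and Axin2 in HR+ luminal cells, which were the smallest class.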

Other observations

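The 4 antibody tags of a library mark pools that no label assigns to a mouse, passage or repeat, so their values are given with no test. In HR- luminal cells, Sfrp1 of tags 1 to 4 was 178, 76.5, 145 and 101 CPM in WT_control, 184, 107, 174 and 72.8 CPM in WT_HU, 172, 62.7, 147 and 106 CPM in Brca2mut_control, and 196, 84.4, 217 and 94.0 CPM in Brca2mut_HU. Tags 1 and 3 lay between 145 and 217 CPM in all 4 libraries and tags 2 and 4 between 62.7 and 107 CPM, with no value between.

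Axin2 in the same cells was in the reverse order, at few UMIs. Its tags 1 to 4 gave 0.273, 1.498, 0.266 and 0.858 CPM in WT_control, 0.363, 2.76, 0.270 and 0.849 CPM in WT_HU, 0.152, 1.10, 0.190 and 1.39 CPM in Brca2mut_control, and 0.347, 1.99, 0.194 and 3.42 CPM in Brca2mut_HU. Each tag 2 and 4 was above each tag 1 and 3.

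Wnt5b in HR- luminal cells was nearly absent from 2 pools. Its tags 1 to 4 gave 18.3, 8.15, 18.5 and 8.75 CPM in WT_control, 19.7, 16.3, 19.8 and 14.0 CPM in WT_HU, 18.7, 1.10, 17.3 and 19.996 CPM in Brca2mut_control, and 18.1, 0.894, 22.0 and 20.2 CPM in Brca2mut_HU. The low pair was tag 2 of both Brca2mut libraries, on 681 and 388 cells. Wnt6 was 15.7 CPM in the 117 HR- luminal cells of tag 4 in Brca2mut_HU and 0.0683 to 2.46 CPM in the other 15 pools.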
